A study of Mus musculus with 29 samples.

Results

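EF-hand calcium-binding proteins are described here across sorted cell populations of the mouse retina. The 10 genes are Cabp1, Cabp2, Cabp4, Cabp5, Cabp7, Caln1, Calb1, Calb2, Pvalb and Ncald. They were chosen by name and are 10 of the 24062 genes in the RNA-seq table. Reads were present for all 10, and 8 passed a filter on low counts (Cabp7 and Pvalb did not). Expression was measured in 15 RNA-seq libraries, 3 from each of 5 populations. Pan-BC are all bipolar cells of Otx2-GFP+/- mice at postnatal day 44 to 47, which carry GFP at the end of 1 endogenous Otx2 allele. ON-BC and OFF-BC were separated from Otx2-GFP+/-; Grm6-YFP+/+ mice at day 42 to 48 with a YFP transgene under the Grm6 promoter, and OFF-BC were sorted a second time. Rods came from Nrl-eGFP mice, and the photoreceptors called blue cones came from Nrl-eGFP mice without Nrl, both at day 56. Without Nrl, cells that would form rods take on a cone-like fate with Opn1sw expression, so these photoreceptors stand in for blue cones and are not cones of a normal retina. All bipolar cells carry the Otx2-GFP allele, and the photoreceptors do not. Rod and blue cone libraries had been made for a previous study by that laboratory, so cell class cannot be told apart from study, reporter line and age. A bipolar type that lies between the YFP gates may be missing from ON-BC and OFF-BC. Open chromatin was measured by ATAC-seq in 2 libraries each of these 5 populations and of green cones sorted from Opn1mw-GFP mice at day 56, 12 libraries in all. For ATAC-seq the mice were at day 43 and 44 (pan-BC) or at day 42 and 46 (ON-BC and OFF-BC). The sources disagree on whether the ATAC-seq pan-BC mice carried Grm6-YFP.

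The EF-hand is a helix-loop-helix motif whose loop holds a calcium ion. Proteins built from such motifs either buffer calcium, as calbindin, calretinin and parvalbumin do, or change shape on binding it and then act on a partner, as calmodulin does. CaBP proteins are relatives of calmodulin found in vertebrates, and several of them bind the same channels as calmodulin and oppose its calcium-dependent inactivation of those channels. Photoreceptors and bipolar cells have ribbon synapses, which release transmitter continuously through calcium channels that inactivate little, and CaBP proteins are known at these synapses. Calbindin and calretinin are better known in the retina as markers of horizontal, amacrine and ganglion cells.

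The promoter of Cabp5 is shown first, because it was open in bipolar cells and had no ATAC-seq read in rods. Beside it are the downstream promoter of Cabp2, which carries the same motif but had no ATAC-seq region, and the upstream promoter of Cabp1. The Cabp1 promoter was open in every population. Each sequence holds the 250 bases before a RefSeq start site in GRCm38.p6, read 5′ to 3′ on the gene's strand. Capitals mark TAATCC or its reverse complement, a motif of K50 homeodomain proteins such as CRX and OTX2. TAATTA (Q50 homeodomain) and CAGNTG (E-box) were searched for as well, all on both strands, and had no match in these 3 sequences. Cabp5 lies at chr7:13397905-13398154 on the plus strand, the downstream Cabp2 promoter at chr19:4083269-4083518 on the plus strand, and the upstream Cabp1 promoter at chr5:115194382-115194631 on the minus strand.
Cabp5: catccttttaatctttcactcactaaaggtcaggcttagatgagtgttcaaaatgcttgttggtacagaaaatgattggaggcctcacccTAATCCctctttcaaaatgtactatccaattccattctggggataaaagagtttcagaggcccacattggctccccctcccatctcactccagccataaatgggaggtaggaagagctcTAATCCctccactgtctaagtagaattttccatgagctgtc
Cabp2: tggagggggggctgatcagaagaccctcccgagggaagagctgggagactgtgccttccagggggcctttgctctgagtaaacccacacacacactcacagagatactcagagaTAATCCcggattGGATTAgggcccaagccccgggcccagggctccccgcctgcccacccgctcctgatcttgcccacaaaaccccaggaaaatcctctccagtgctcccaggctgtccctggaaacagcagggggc
Cabp1: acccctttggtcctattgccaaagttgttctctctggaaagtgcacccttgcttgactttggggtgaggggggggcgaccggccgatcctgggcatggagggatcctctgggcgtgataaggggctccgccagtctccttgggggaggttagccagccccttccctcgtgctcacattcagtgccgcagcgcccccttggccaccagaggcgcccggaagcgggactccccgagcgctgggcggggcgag

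Cabp5 had TAATCC on the sense strand at -160 and -41 from its start site, counted to the first base of the motif. The downstream promoter of Cabp2 held it once on each strand, at -136 and -124. TAATCC or its complement occurred in 6.25% of 32851 promoters of the same length, TAATTA in 4.84% and CAGNTG in 44.8%. No match to the 3 motifs was present in the Cabp1 sequence. RefSeq promoters were available for 6 of the 10 members (Cabp1, Cabp2, Cabp5, Cabp7, Caln1 and Pvalb), and Cabp4, Calb1, Calb2 and Ncald had no entry. Cabp1 and Pvalb had 2 promoters each with no match, Caln1 had 3 E-box matches, Cabp7 had 1, and the upstream promoter of Cabp2 had 2. A match describes the letters and is not evidence of binding.

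Levels are given as normalized read counts, which are reads divided by 1 size factor for each library. Libraries held 12329548 to 26266746 counted RNA-seq reads (median 15569580) and 4176776 to 12345845 ATAC-seq reads in regions (median 6648830). Summed levels of marker genes followed the labels. The 5 rod markers were highest in rods, the 6 cone markers in blue cones, the 5 ON bipolar markers in ON-BC and the 5 OFF bipolar markers in OFF-BC. Single genes did not all do so. Vsx1 of the OFF list was higher in ON-BC (847.5 to 1049.4) than in OFF-BC (175.5 to 350.9). Lrit3 of the ON list was at 1.03 to 12.7 in ON-BC and at 368.5 to 593.4 in rods and blue cones. The 5 markers of all bipolar cells summed in OFF-BC to 37.5% of their level in ON-BC. Rod markers summed to 2.41% (pan-BC), 0.889% (ON-BC) and 0.821% (OFF-BC) of their level in rods. The third OFF-BC library stood apart, with cone markers at 5.77% of the blue cone mean against 1.44% and 1.33% in the other OFF-BC libraries. In the first and second OFF-BC libraries the cone marker sum was mostly Gnat2 (16557 and 13813, against 21002 in the third). In the third it was mostly Opn1sw (55813, against 4477 and 4314). In these bulk libraries, fewer cells of a type and less RNA per cell cannot be told apart.

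Of the 8 members tested, 7 differed between pan-BC and rods, 6 higher in pan-BC and 1 lower, against 43.6% of all genes tested. Between pan-BC and blue cones 6 differed, 5 higher and 1 lower, against 36.3% of all genes. Between rods and blue cones 2 differed (Cabp1 and Cabp5), both lower in rods, against 15.9% of all genes. No member differed between ON-BC and OFF-BC, where 6.55% of all genes did. These tests are limma's, against a log2 fold change of 1 on the scale of log2(normalized count + 1), with p-values adjusted by Benjamini-Hochberg over 14024 genes and a threshold of 0.05. Libraries did not overlap for 7 of the 8 members between pan-BC and rods, and for 7 between pan-BC and blue cones. The shares over all genes tested were 83.7% and 78.4%. Between ON-BC and OFF-BC, 4 members did not overlap, against 42.2% of all genes, and between rods and blue cones 4, against 60.9%. The median log2 fold change of the 8 members was 5.52 between pan-BC and rods, where the median of all genes was 0.21. With Caln1, which had no reads in rods, set to its lower bound, the members' median was 5.44. It was 3.03 against 0.16 between pan-BC and blue cones, 0.21 against -0.015 between ON-BC and OFF-BC, and -0.94, with or without Caln1, against -0.005 between rods and blue cones.

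**Figure D1:**
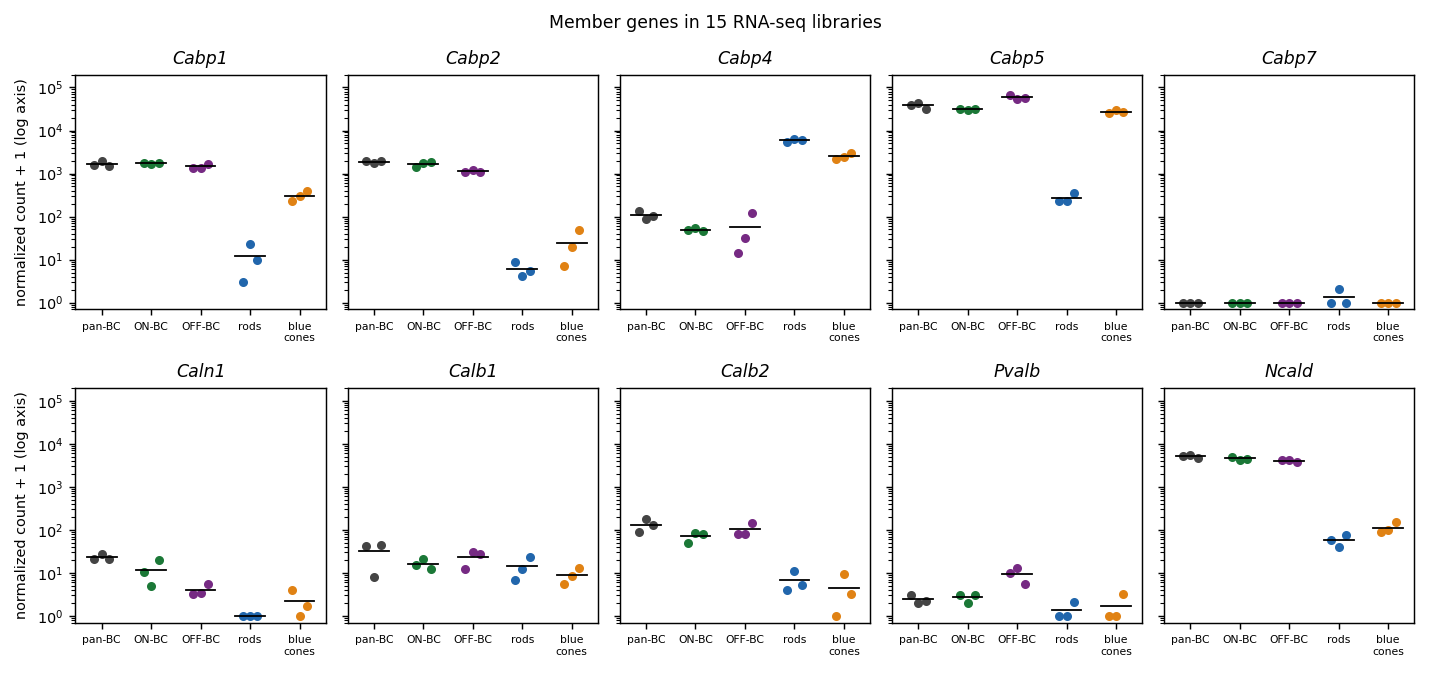
Normalized count plus 1 on a log axis for the 10 genes (panels) in 15 RNA-seq libraries, with 1 point per library and a line at the mean of 3 libraries; a library without reads sits at 1. Cabp4 is high in rods and blue cones, Cabp5 is high in every population but rods, and Cabp1, Cabp2 and Ncald are high in the 3 bipolar populations.

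Cabp5, a CaBP protein known from rod bipolar cells and several cone bipolar types, had the most reads of the 10 genes. The pan-BC libraries had normalized counts of 39537, 43236 and 31929, the ON-BC libraries 32369, 29390.2 and 31953, and the OFF-BC libraries 66995, 54422 and 56401. Blue cones had 25242, 29459.7 and 26999.7, and rods 234.8, 232.5 and 356.6. All 12 libraries of bipolar cells and blue cones were far above the 3 rod libraries, and the highest blue cone library overlapped the lowest of ON-BC.

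The mean of Cabp5 was 139-fold higher in pan-BC than in rods (log2 fold change 7.13 ± 0.17 SE, adjusted p = 9.82e-15). Blue cones exceeded rods 99.2-fold (log2 fold change of rods over blue cones -6.65 ± 0.17, adjusted p = 3.3e-14). Pan-BC and blue cones differed 1.40-fold, with a log2 fold change of 0.48 (95% interval 0.13 to 0.83) that did not pass the test against 1 (adjusted p = 1). The libraries of pan-BC and blue cones did not overlap, and against a fold change of 0 this difference did pass (adjusted p = 0.0151). Bipolar markers in blue cones were at 1.13% (ON), 0.965% (OFF), 10.9% (rod bipolar) and 7.50% (all bipolar) of the population where each list was highest. Their part in the level of Cabp5 in blue cones was not tested. OFF-BC exceeded ON-BC 1.9-fold with no overlap of their libraries. That log2 fold change of ON-BC over OFF-BC was -0.92 ± 0.17 (95% interval -1.27 to -0.57), which did not pass the test against 1 (adjusted p = 1) and did pass against 0 (adjusted p = 0.000465).

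Cabp4, a partner of the L-type calcium channel of photoreceptor terminals and needed for their synaptic transmission, had the opposite distribution. The rod libraries had normalized counts of 5295.6, 6503.7 and 5935, and the blue cone libraries 2206.7, 2437 and 2945. Pan-BC had 134.0, 85.8 and 101.6, ON-BC had 46.4, 52.9 and 44.1, and OFF-BC had 13.4, 31.2 and 121.4. Rods were the highest population, blue cones came next without overlap, and all 9 bipolar libraries were lower than any photoreceptor library.

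The mean of Cabp4 was 55.2-fold higher in rods than in pan-BC (log2 fold change of pan-BC over rods -5.79 ± 0.48, adjusted p = 7.74e-08) and 23.6-fold higher in blue cones than in pan-BC (-4.56 ± 0.48, adjusted p = 4.42e-06). Rods exceeded blue cones 2.34-fold, with a log2 fold change of 1.23 (95% interval 0.22 to 2.24) that did not pass the test against 1 (adjusted p = 1). ON-BC and OFF-BC overlapped. Their log2 fold change was 0.34 (95% interval -0.67 to 1.35), although the mean of OFF-BC was the higher one (55.3 against 47.8), and it was -0.37 without the first OFF-BC library and 1.175 without the third.

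Photoreceptor markers are given beside the reads of Cabp4 in bipolar cells. Cabp4 stood at 2.27%, 1.45% and 1.72% of the rod mean in the 3 pan-BC libraries, where the sum of the 5 rod markers (Gnat1, Nrl, Pde6a, Sag and Cnga1) stood at 2.58%, 2.06% and 2.6% of theirs. In ON-BC it stood at 0.785%, 0.895% and 0.746%, with rod markers at 0.80%, 1.1% and 0.764%. In OFF-BC it stood at 0.227%, 0.528% and 2.05%, with rod markers at 0.362%, 0.32% and 1.78% and cone markers at 1.44%, 1.33% and 5.77%. The third OFF-BC library, highest in Cabp4 of its population, was also highest in both marker sums. Its rod marker sum of 16950 was mostly Sag (16458), which blue cones also had at 160729 to 252594. Gnat1, Pde6a and Cnga1 in that library lay between the other OFF-BC libraries, and Nrl was slightly above them (24.3 against 14.5 and 22.8). Sag was also the largest part of the rod marker sum in pan-BC (14424 to 18791). Between the first and second OFF-BC libraries, Cabp4 was higher in the second and both marker sums in the first. Of single markers, Gnat1 and Sag (rods) and Opn1sw and Gnat2 (cones) were also higher in the first. Nrl, Pde6a and Cnga1 (rods) and Opn1mw, Arr3, Pde6h and Cnga3 (cones) were higher in the second, as Cabp4 was. No marker of either list was at 0 in all libraries of a population, and their part in the level of Cabp4 was not tested.

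**Figure D2:**
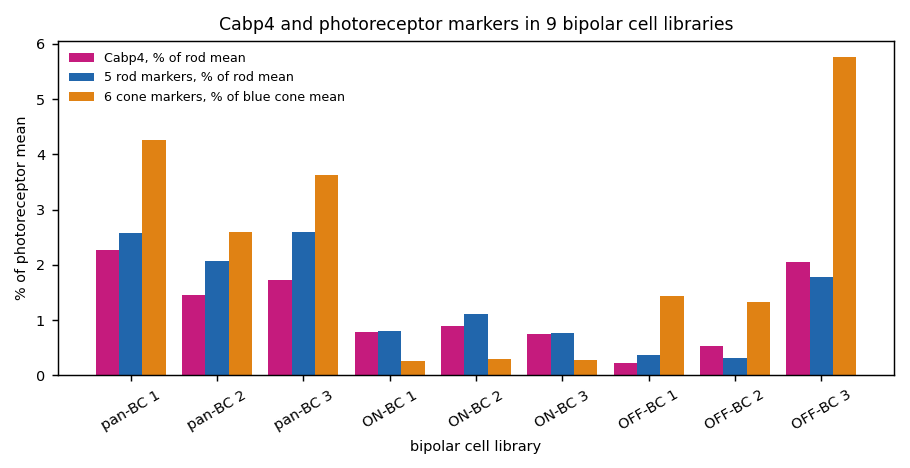
Cabp4 as a percentage of its mean in rods, beside the summed 5 rod markers as a percentage of rods and the summed 6 cone markers as a percentage of blue cones, in each of the 9 bipolar cell libraries. In the third OFF-BC library Cabp4 is at 2.05% and the cone markers at 5.77%, the highest of OFF-BC.

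Cabp1, whose longer form is caldendrin and which acts on L-type channels and IP3 receptors, was high in every bipolar library. The pan-BC libraries had normalized counts of 1549.7, 1970.1 and 1518, the ON-BC libraries 1739.7, 1689 and 1714, and the OFF-BC libraries 1376, 1373 and 1653. Blue cones had 223.4, 291.4 and 400.4, and rods had 1.94, 22.5 and 8.65. Blue cones lay between bipolar cells and rods and overlapped neither. Pan-BC exceeded rods 152-fold (log2 fold change 7.58 ± 0.46, adjusted p = 9.74e-10) and blue cones 5.51-fold (2.49 ± 0.46, adjusted p = 0.00885). Blue cones exceeded rods 27.6-fold (log2 fold change of rods over blue cones -5.09 ± 0.46, adjusted p = 1.4e-06). The log2 fold change of ON-BC over OFF-BC was 0.23 (95% interval -0.75 to 1.21), although the libraries did not overlap.

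Cabp2, a CaBP protein best known from the ribbon synapses of hair cells, was nearly restricted to bipolar libraries. The pan-BC libraries had normalized counts of 1903, 1781 and 1998, the ON-BC libraries 1435, 1749 and 1824, and the OFF-BC libraries 1064, 1175 and 1103.5. Blue cones had 6.02, 18.2 and 47.4 and rods 7.76, 3.07 and 4.32. Pan-BC exceeded rods 375-fold (log2 fold change 8.36 ± 0.45, adjusted p = 1.61e-10) and blue cones 79.4-fold (6.66 ± 0.45, adjusted p = 1e-08). Rods and blue cones overlapped, and their log2 fold change of -1.70 did not pass the test (adjusted p = 0.33), but did without the first blue cone library (-2.41, adjusted p = 0.0024). ON-BC were above OFF-BC in every library, with a log2 fold change of 0.58 (95% interval -0.38 to 1.53) that did not pass.

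Ncald encodes neurocalcin delta, a neuronal calcium sensor that moves to membranes when it binds calcium. The pan-BC libraries had normalized counts of 5220.4, 5594 and 4774, the ON-BC libraries 5008, 4272 and 4485, and the OFF-BC libraries 4208, 4100.5 and 3679. Blue cones had 85.7, 96.4 and 149.5, and rods had 58.2, 38.9 and 74.6. The means of the bipolar populations were 5196, 4588 and 3996, in the same order. Pan-BC exceeded rods 90.8-fold (log2 fold change 6.53 ± 0.20, adjusted p = 2.87e-13) and blue cones 47.0-fold (5.58 ± 0.20, adjusted p = 1.12e-11). Blue cones were above rods in every library, but the log2 fold change of rods over blue cones of -0.94 (95% interval -1.38 to -0.51) did not pass the test against 1 (adjusted p = 1). The log2 fold change of ON-BC over OFF-BC was 0.20 (95% interval -0.23 to 0.63).

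Calneurons, encoded by Caln1 and Cabp7, are held in the Golgi membrane by a tail segment. Caln1 was low: the pan-BC libraries had normalized counts of 20.2, 26.2 and 19.6, the ON-BC libraries 9.29, 3.92 and 18.5, and the OFF-BC libraries 2.24, 2.40 and 4.41. Blue cones had 3.01, 0 and 0.740, and none of the rod libraries had a read. Pan-BC were above every other library. The mean of pan-BC was at least 7.16-fold higher than in rods, taking 3 reads in each rod library as the floor (limma's adjusted p = 2.79e-05). It was 17.6-fold higher than in blue cones, which rest on 5 reads in all (log2 fold change 3.58 ± 0.57, adjusted p = 0.000736). ON-BC and OFF-BC overlapped, with a log2 fold change of 1.35 (95% interval 0.14 to 2.56) that did not pass the test against 1 (adjusted p = 1). Cabp7 had 1 read in all 15 libraries, in the second rod library, and a count of 0 allows up to 3 reads, or a normalized count of 2.22 to 3.67, in each of the others. Exons of Cabp7 overlap those of Zmat5 by 338 bases, and reads there cannot be given to 1 gene without strand.

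The cytosolic buffers were low in all populations. For Calb2, or calretinin, the pan-BC libraries had normalized counts of 86.2, 178.6 and 127.2, the ON-BC libraries 49.5, 85.3 and 79.0, and the OFF-BC libraries 79.4, 80.5 and 143.5. Blue cones had 0, 8.35 and 2.22, and rods had 2.91, 10.2 and 4.32. Bipolar cells were thus above photoreceptors without overlap. Pan-BC exceeded rods 22.4-fold (log2 fold change 4.36 ± 0.62, adjusted p = 0.000102) and blue cones 37.1-fold (5.34 ± 0.62, adjusted p = 9.59e-06). ON-BC and OFF-BC overlapped, with a log2 fold change of -0.48 (95% interval -1.79 to 0.84).

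Calb1, or calbindin, was the only one of the 8 tested members that differed in none of the 4 comparisons by limma. The pan-BC libraries had normalized counts of 41.5, 7.06 and 42.8, the ON-BC libraries 14.5, 19.6 and 11.3, and the OFF-BC libraries 11.2, 30.04 and 26.5. Rods had 5.82, 11.3 and 22.7, and blue cones had 4.51, 7.59 and 11.8. Every population overlapped its neighbour in order of level. The second pan-BC library was low, and without it the difference between pan-BC and blue cones passed (log2 fold change 2.35, adjusted p = 0.0463, against 1.54 and 0.441 with it). Pvalb, or parvalbumin, had 8, 10 and 4 reads in OFF-BC and 0 to 3 in each of the other 12 libraries. Normalized, this was 8.94, 12.01 and 4.41 in OFF-BC and at most 2.22 elsewhere, and no test was made because Pvalb did not pass the filter.

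Markers of the cells in which these buffers are best known were also present at low level. The 6 amacrine markers (Gad1, Gad2, Slc6a9, Slc32a1, Tfap2a and Tfap2b) summed to between 734.3 and 939.5 in OFF-BC libraries, against 225.7 to 350.8 for ON-BC and 440.5 to 464.8 for pan-BC. In rods and blue cones their sums of 1357 to 2427 were nearly all Slc6a9, and Slc32a1 was at 0. Slc6a9 was also the largest part of the sum in every bipolar library, at 461.6, 599.5 and 637.8 in OFF-BC. Gad1 was lower in OFF-BC (26.4 to 29.1) than in pan-BC (55.1 to 71.3). Tfap2b was higher in OFF-BC (156.7 to 258.3) than in pan-BC (90.4 to 93.8). The 6 ganglion markers summed to 299.8 to 343.0 (pan-BC), 235.0 to 300.8 (ON-BC) and 56.5 to 97.1 (OFF-BC), where Slc17a6 and Pou4f2 were at 0. The 3 horizontal cell markers summed to 15.1 to 57.4 (pan-BC), 69.1 to 99.0 (ON-BC) and 23.5 to 58.9 (OFF-BC). Among pan-BC libraries, library 2 was lowest both in Calb1 and in this sum, which was mostly Onecut2 (53.2, 15.1 and 46.5 in pan-BC). Across populations the sum was highest in ON-BC, where Calb1 was at 11.3 to 19.6, and it was 14.4 to 63.2 in blue cones. The part of such cells in the levels of Calb1, Calb2 and Pvalb was not tested.

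**Figure D3:**
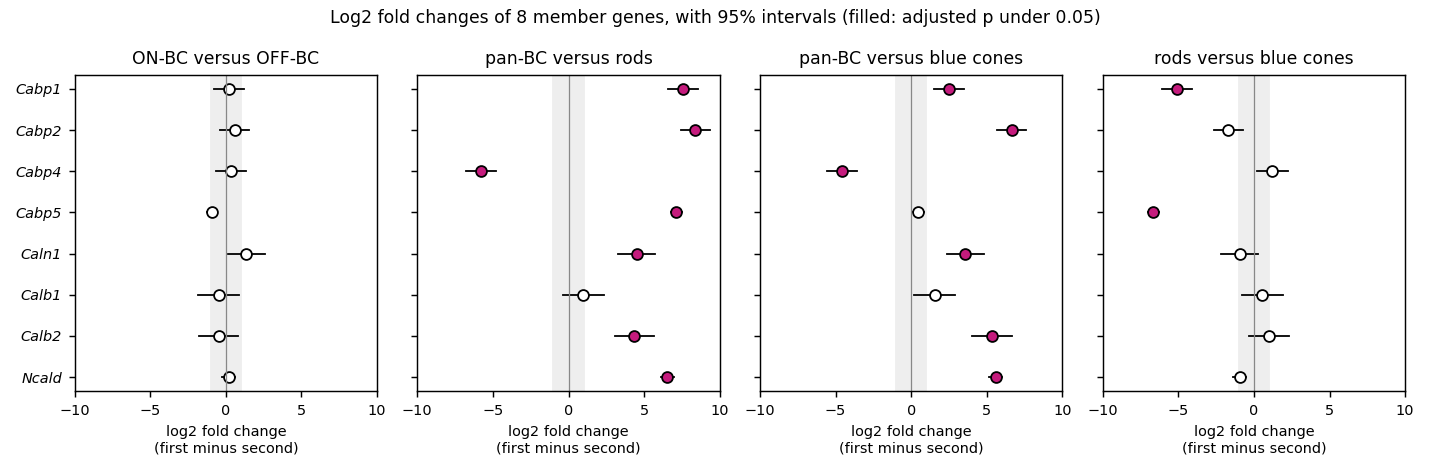
Log2 fold change (first minus second population, points) of the 8 tested members in 4 comparisons, with 95% intervals as bars; filled points have an adjusted p under 0.05, and the grey band spans -1 to 1. Filled points are 0, 7, 6 and 2 from left to right, and Cabp4 is the only one of them below 0 in the 2 comparisons with pan-BC.

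Beyond single genes, ON-BC and OFF-BC had no called member by limma, and none had an unadjusted p under 0.05 in the test against 1. The count was also 0 by edgeR and by DESeq2. Among all genes, limma called 919 and 1399 had an unadjusted p under 0.05. The 95% intervals of Cabp1, Cabp2, Cabp4, Calb1 and Calb2 reached past 1 in size, as did those of Cabp5 and Caln1, and only the interval of Ncald lay within 1.

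Levels were compared between genes per kb of the longest curated transcript. Cabp5 led in 4 populations, with 33967 normalized counts per kb for OFF-BC, 21911 for pan-BC, 17901 for ON-BC and 15607 for blue cones. In rods Cabp4 led with 4125 per kb, ahead of Cabp5 with 157.4. After Cabp5, the order in pan-BC and ON-BC was Cabp2 (1832 and 1615 per kb), Ncald (1356 and 1197) and Cabp1 (1037 and 1059). In OFF-BC these 3 genes lay closer together, at 1078 ± 54.4, 1043 ± 72.9 and 906.3 ± 99.3 per kb (SD, n = 3). In blue cones Cabp4 was the second gene, with 1765 per kb, and Cabp1 the third, with 188.4. Using the union of all exons in place of the longest transcript lowered Cabp1 in ON-BC to 898.1, Cabp2 in pan-BC to 1467 and Ncald in pan-BC to 1076 per kb.

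**Figure D4:**
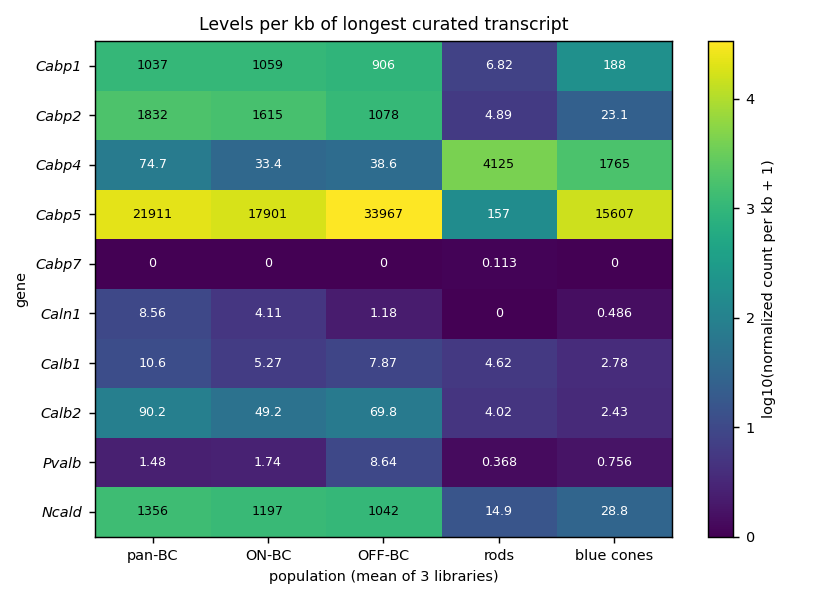
Mean normalized count per kb of the longest curated transcript (printed in each cell, coloured on a log10 scale) for the 10 genes (rows) in 5 populations (columns, 3 libraries each). Cabp5 is the highest gene in 4 populations and Cabp4, at 4125 per kb, in rods.

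Open chromatin was described in 200 bp regions, each given to the gene with the nearest RefSeq start site. The members received 63 of 110715 regions, and 60 were tested. Between pan-BC and rods 36 differed, 31 of them more open in pan-BC, against 51.6% of all regions. Between pan-BC and blue cones 19 differed (16 more open in pan-BC), against 35.9% of all regions. Between rods and blue cones 13 differed (12 more open in blue cones), against 10% of all regions. ON-BC and OFF-BC differed in 3 regions, all more open in OFF-BC, against 7.39%. The median log2 fold changes of the member regions were 2.45, 0.54, -1.11 and -0.29 in these comparisons, beside 1.16, 0.54, -0.20 and 0.15 over all regions. Of the 31 regions more open in pan-BC than in rods, 13 belonged to Ncald and 10 to Caln1, which are long genes with many regions each. A region near a gene is not shown to act on it.

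Cabp4 had a single region, chr19:4139550-4139749, which overlaps an exon of Cabp4 and is centred 41 bp before its start site. Rods had normalized ATAC-seq counts of 899.5 and 787.4, blue cones 343.2 and 329.5, and green cones 371.1 and 381.6. Pan-BC had 28.0 and 25.7, ON-BC 17.9 and 23.4, and OFF-BC 32.3 and 54.5. Every photoreceptor library was above every bipolar library. The log2 fold change was -4.92 ± 0.25 for pan-BC over rods (adjusted p = 1.16e-09) and -3.60 ± 0.25 for pan-BC over blue cones (adjusted p = 7.46e-07). Rods over blue cones gave 1.32 ± 0.25, which did not pass (adjusted p = 0.453).

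The promoter region of Cabp5, chr7:13397948-13398147, lies within the sequence shown for Cabp5. Pan-BC had 152.0 and 209.8 there, ON-BC 194.1 and 266.5, and OFF-BC 80.8 and 91.5. Rods had none, blue cones 9.07 and 12.3, and green cones 1.54 and 2.82. Pan-BC were at least 82.8-fold above rods, taking 3 reads in each rod library as the floor (limma's adjusted p = 2.43e-09). Pan-BC exceeded blue cones with a log2 fold change of 3.96 ± 0.44 (adjusted p = 3.16e-05). Blue cones were at least 4.89-fold above rods (adjusted p = 0.000345), a call that a pseudocount of 4 removed (adjusted p = 0.1).

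A second region of Cabp5, chr7:13408327-13408526, lies in the last exon, past the coding part, 10271 bp after the start site. Pan-BC had 112.0 and 154.5, ON-BC 149.3 and 178.6, and OFF-BC 70.05 and 89.6. Blue cones had 62.2 and 67.9, green cones 14.6 and 32.4, and rods 7.79 and 4.07. Here blue cones stood nearer to bipolar cells than at the promoter. The log2 fold change of pan-BC over blue cones was 1.01 ± 0.37 and did not pass (adjusted p = 0.783), and that of rods over blue cones was -3.31 ± 0.37 (adjusted p = 0.000184). Another region, at -19421 bp from the start site and inside Pla2g4c-ps, had 20.7 and 21.7 in blue cones and none in rods, at least 9.70-fold more (adjusted p = 0.002). Both the promoter and the exon region had higher counts in ON-BC than in OFF-BC, with log2 fold changes of 1.39 ± 0.44 and 1.04 ± 0.37 that did not pass (adjusted p = 0.756 and 1), whereas the read count of the gene was higher in OFF-BC.

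**Figure D5:**
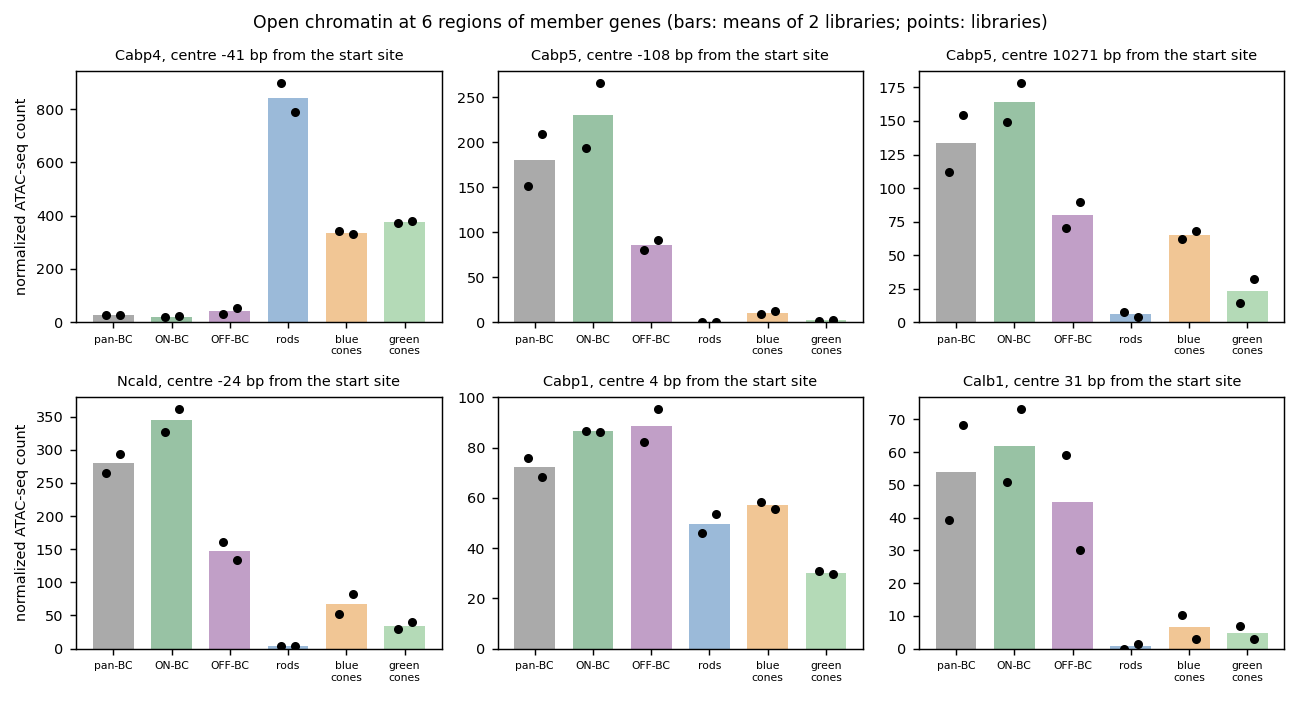
Normalized ATAC-seq count of 6 regions of member genes (panels, with the distance of the centre from the start site) in 6 populations, with bars at the mean of 2 libraries and points for the libraries; each panel has its own scale. The Cabp5 promoter region is at 0 in both rod libraries and at 9.07 and 12.3 in blue cones, while the region 10271 bp downstream is at 62.2 and 67.9 in blue cones.

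The promoter region of Ncald with the most reads, chr15:37459306-37459505, overlaps an exon. Pan-BC had 264.8 and 294.2, ON-BC 327.0 and 361.6, OFF-BC 160.3 and 134.3, blue cones 51.8 and 81.7, green cones 29.2 and 39.4, and rods 3.12 and 4.07. The bipolar cells were thus highest, then blue cones, then rods, with no overlap. The log2 fold change was 5.94 ± 0.28 for pan-BC over rods (adjusted p = 4.58e-10), 2.08 ± 0.28 for pan-BC over blue cones (adjusted p = 0.00287, and 0.0541 without the first blue cone library) and -3.86 ± 0.28 for rods over blue cones (adjusted p = 8.15e-07). Ncald mRNA in blue cones, by contrast, was 1.93 times that of rods. The promoter region of Calb1, chr4:15881196-15881395, which spans its start site, gave pan-BC 39.2 and 68.4, rods 0 and 1.36, and blue cones 10.4 and 2.89. It differed between pan-BC and rods (log2 fold change 5.11 ± 0.67, adjusted p = 2.81e-05), although Calb1 mRNA did not.

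Cabp1 had 9 regions and 2 promoters. The region at its upstream promoter, chr5:115194277-115194476, overlaps an exon. Pan-BC had 76.0 and 68.4, ON-BC 86.6 and 86.4, OFF-BC 82.2 and 95.4, rods 45.95 and 53.5, blue cones 58.3 and 55.7, and green cones 30.7 and 29.6. It was thus open in every population, and its log2 fold change of pan-BC over rods was 0.53 ± 0.26 (adjusted p = 1), beside 7.58 for the mRNA. An intronic region between the promoters, chr5:115189749-115189948, was lower in pan-BC (3.20 and 3.42) than in rods (65.4 and 60.99) or blue cones (84.2 and 77.3), with log2 fold changes of -3.90 ± 0.52 (adjusted p = 7.76e-05) and -4.24 ± 0.52 (adjusted p = 6.5e-05). The intronic region chr5:115184794-115184993, 1227 bp after the downstream start site, was higher in blue cones (112.7 and 134.4) than in rods (20.3 and 12.9), with a log2 fold change of rods over blue cones of -2.85 ± 0.32 (adjusted p = 0.000308).

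Cabp2 had no region at either promoter. Its single region, chr19:4089157-4089356, lies 5737 bp from its nearest start site and outside the gene, and was higher in rods than in pan-BC (means 176.2 and 30.3, log2 fold change of pan-BC over rods -2.57 ± 0.34, adjusted p = 0.000435), opposite in sign to the mRNA. Calb2 had a promoter region, chr8:110168145-110168344, with means of 37.7 for pan-BC, 7.57 for rods and 35.2 for blue cones, where the mRNA was low. It differed between pan-BC and rods (log2 fold change 2.18 ± 0.37, adjusted p = 0.00604). The 3 regions more open in OFF-BC than in ON-BC were 2 intronic regions of Caln1 and 1 region at -6943 bp from the start of Cabp1. They were chr5:130601003-130601202 (log2 fold change -3.54 ± 0.76, adjusted p = 0.0296), chr5:130683835-130684034 (-3.47 ± 0.62, adjusted p = 0.0115) and chr5:115201224-115201423, where ON-BC had no read (OFF-BC at least 4.57-fold higher, adjusted p = 0.0151). These calls rest on single libraries. Without the first ON-BC library the first Caln1 region (log2 fold change -1.90, adjusted p = 0.402) and the Cabp1 region (adjusted p = 0.0565) were lost, and without either pan-BC library the first Caln1 region was (adjusted p = 0.0548 and 0.0538). The number called was 1 without the second ON-BC or the first OFF-BC library and 0 without the second OFF-BC library. Caln1 mRNA, by contrast, had its higher mean in ON-BC.

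Cabp7, nearly without reads, still had 6 regions. The region at its start site, chr11:4746975-4747174, overlaps its exon and gave means of 23.5 for pan-BC, 19.2 for ON-BC, 13.9 for OFF-BC, 15.8 for rods and 12.98 for blue cones, none of them called different. More open in rods than in pan-BC were 2 others, in Nf2 (means 153.6 and 14.0, log2 fold change of pan-BC over rods -3.37 ± 0.50, adjusted p = 0.000299) and in Zmat5 (258.7 and 41.8, -2.60 ± 0.30, adjusted p = 0.000109). These lie in other genes and carry the name Cabp7 only as the nearest start site.

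The other EF-hand genes and the channels were taken from 5 lists, whose counts stand beside 43.6% (pan-BC against rods), 36.3% (pan-BC against blue cones), 15.9% (rods against blue cones) and 6.55% (ON-BC against OFF-BC) of all genes called, with medians over all genes of 0.21, 0.16, -0.005 and -0.015. Among 11 tested neuronal calcium sensors, the family of Ncald, 7 were higher and 4 lower in pan-BC when compared with rods, and 6 and 4 against blue cones, with median log2 fold changes of 5.19 and 2.56. Kcnip3, a partner of A-type potassium channels, had means of 1569.7 ± 172.3 (SD, n = 3) in pan-BC and 3.78 ± 3.37 in rods (log2 fold change 8.79 ± 0.51 SE, adjusted p = 3.71e-10 by limma). Kcnip2, of the same family, had 674.2 ± 117.5 and 1.02 ± 0.055 (8.37 ± 0.33, adjusted p = 2.91e-12 by limma). Hpca, or hippocalcin, had 1831 ± 321.3 in pan-BC and 6.23 ± 4.80 in blue cones (8.24 ± 0.51, adjusted p = 1.93e-09 by limma). Guca1b, an activator of retinal guanylate cyclase, had 85998 ± 7274 in rods and 562.0 ± 69.9 in pan-BC (log2 fold change of pan-BC over rods -7.26 ± 0.70, adjusted p = 3.8e-07 by limma). DESeq2 gave no adjusted p for Guca1b. Of this list 1 gene was higher and 2 were lower in ON-BC than in OFF-BC, and 1 was higher and 3 were lower in rods than in blue cones.

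Of 10 tested genes for calmodulin, calcineurin B and centrins, 5 were higher and 3 lower in pan-BC when set against rods, 4 and 2 against blue cones, 1 and 1 in rods over blue cones, and 2 and 1 in ON-BC over OFF-BC (medians 1.33, 0.87, -0.26 and -0.27). Calml4, a calmodulin-like protein, had 112.7 ± 35.9 in pan-BC, 437.7 ± 52.2 in OFF-BC and no read in blue cones, so that pan-BC were at least 50.1-fold higher than blue cones. Ppp3r2, a calcineurin B subunit, was higher in ON-BC than in OFF-BC (20.6 ± 6.28 and 0.745 ± 1.29, log2 fold change 3.83 ± 0.65, adjusted p = 0.00484 by limma). DESeq2 did not call that difference (adjusted p = 0.0717). Cetn4, a centrin, was higher in blue cones than in pan-BC (102.0 ± 15.5 and 10.1 ± 1.82, log2 fold change of pan-BC over blue cones -3.21 ± 0.36, adjusted p = 3.85e-05 by limma).

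Of 15 other cytosolic EF-hand genes tested, 11 were higher and none lower in pan-BC when set against rods, 8 and none against blue cones, none and 5 in rods over blue cones, and none and 4 in ON-BC over OFF-BC (medians 3.57, 3.03, -0.97 and -1.74). Scgn, or secretagogin, a calcium sensor of bipolar cells, had 40894 ± 2573 in pan-BC and 119.6 ± 50.5 in rods (log2 fold change 8.48 ± 0.24, adjusted p = 4.76e-14 by limma). Cib2, a calcium- and integrin-binding protein, had 302.4 ± 17.1 and 2.77 ± 1.35 (6.38 ± 0.33, adjusted p = 1.39e-10 by limma). Sri, or sorcin, was higher in blue cones than in rods (651.8 ± 65.4 and 15.8 ± 3.64, log2 fold change of rods over blue cones -5.30 ± 0.20, adjusted p = 1.42e-11 by limma), as Cabp5 was. Necab1, an N-terminal EF-hand protein, had 58.8 ± 9.45 in pan-BC and 0.757 ± 0.759 in blue cones (5.17 ± 0.85, adjusted p = 0.000358 by limma). Of these 4 genes, Scgn and Sri had their highest mean in OFF-BC (101221 ± 5750 and 1250.2 ± 120.2), as Cabp5 did. The highest mean of Necab1 was also in OFF-BC, but at 76.2 ± 58.9, a spread that takes in its pan-BC mean of 58.8.

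Of 9 reticular and mitochondrial EF-hand genes, 2 were higher and none lower in pan-BC when set against rods, 1 and 2 against blue cones, none and 2 between rods and blue cones, and no gene differed by limma when ON-BC were set against OFF-BC (medians 0.55, -0.48, -0.65 and 0.12). Tested against 0, the count against rods was 7 and that between ON-BC and OFF-BC was 1. Rcn1 and Calu, calcium-binding proteins of the secretory pathway, were higher in blue cones (400.2 ± 83.3 and 46896 ± 5078) than in rods (6.49 ± 2.99 and 1759.9 ± 145.1), with log2 fold changes of rods over blue cones of -5.82 ± 0.40 and -4.73 ± 0.17 (limma's adjusted p = 3.4e-08 and 1.46e-11). Rcn3 was higher in pan-BC than in blue cones (26.7 ± 10.2 and 3.04 ± 5.26, log2 fold change 3.596 ± 0.75, adjusted p = 0.00553 by limma).

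The last list held channels that CaBP proteins and calmodulin bind. Of 8 tested, 5 were higher and 2 lower in pan-BC when set against rods, 5 and 1 against blue cones, 1 and 2 in rods over blue cones, and 2 and none in ON-BC over OFF-BC (medians 2.99, 1.80, 0.86 and 0.29). Cacna1f, the pore of the photoreceptor L-type channel with which Cabp4 acts, had means of 11885 in rods, 6951 in blue cones and 4071 to 5179.8 in the bipolar populations. It was chosen for mention after its values were seen. Cacna1d, another L-type pore, had 921.9 ± 54.3 in pan-BC and 7.14 ± 3.56 in rods (log2 fold change 6.94 ± 0.30, adjusted p = 1.04e-11 by limma). Cacna1c had 51.7 ± 7.76 in pan-BC and 2.51 ± 3.13 in blue cones (4.33 ± 0.56, adjusted p = 5.63e-05 by limma). Itpr2, an IP3 receptor, had 637.0 ± 142.0 in rods and 3.83 ± 2.97 in pan-BC (log2 fold change of pan-BC over rods -7.22 ± 0.68, adjusted p = 2.44e-07 by limma). Itpr3, another, had 285.8 ± 31.8 in blue cones and 1.995 ± 1.63 in rods (-6.70 ± 0.34 for rods over blue cones, adjusted p = 4.23e-10 by limma).

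The genes most like each member were taken by Pearson's r of log2(normalized count + 1) over the 15 libraries. These fall into 5 populations of 3, so r describes the pattern over populations and no p is given. Cabp5 was most like Gem, a small GTPase that binds calcium channel beta subunits (r = 0.997), Prickle2 (0.995) and Stat5b (0.995), which were likewise lowest in rods and highest in OFF-BC. Among the genes most like Cabp4 were Casz1 (0.996) and Grk1, a photoreceptor kinase (0.995), and among those most like Cabp1 were Hivep2 (0.993) and Rd3l (0.992). Cabp2 was most like St8sia3, Slc8a1 and Fndc5 (0.996 each). Ncald was most like Lrrn2, Mapt and Syt4 (0.997 each), Calb2 like Gnai1 (0.975), Rab5c (0.974) and Nt5dc2 (0.969), and Caln1 like Lpl (0.955), Gm15800 (0.953) and Alox8 (0.946). Calb1 had the lowest values, with 0.822 for Gm10364, 0.816 for Flrt2 and 0.799 for Arrdc4. Among members, r was 0.991 between Cabp2 and Ncald, 0.943 between Cabp1 and Cabp5, and -0.960 between Cabp4 and Ncald.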

How the data were processed

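RNA-seq values of 15 libraries and ATAC-seq values of 12 were used, and 2 double-sorted green cone libraries with peak lists only were not used here. Per the submitters' processing notes, the tools included STAR 2.7.0d, HTSeq 1.9 (as written there), featureCounts, Bowtie2 2.2.5, SAMtools 1.3, Picard 2.19.0 and MACS2 2.1.1, with mm10. The deposited signal values are read counts that the authors divided by 1 size factor per library. All 230384 gene values and 1212862 region values above 0 were whole multiples of a step per library (within 0.01 of a read), which gave back the reads. Peak lists were not used here. Since the tables hold normalized values, limma 3.58.1 (treat, log2 fold change 1, trended prior) on log2(value + 1) was the main test, with all libraries of an assay in 1 fit and populations as levels. edgeR 4.0.16 and DESeq2 1.42.0 on recovered reads were alternatives. edgeR's filterByExpr kept 14024 genes and 108448 regions. The pseudocount understates changes of low values. Replicates were separate libraries of pooled retinas, and p-values measure the spread between them. The 95% intervals of log2 fold changes are limma's and cover the spread between libraries, while floors of 3 reads cover counting error only. Regions went to the nearest of 45756 RefSeq start sites, and those centred from 1000 bp before to 100 bp after one were promoters. The scripts were tested on simulated data. From each list, up to 4 called genes with the largest log2 fold change in any comparison were named, and for each member the 3 most correlated genes. A few genes that these rules or the marker lists name are not reported here, and 1 was left out of the rod marker sum. The members and lists were chosen with earlier results of these data known. Alternatives were other pseudocounts, scalings, filters, a test against 0, fits of 2 populations, a replicate block and leaving out each library. Promoter sequences are RefSeq's (GRCm38.p6). HTSeq counting was not stated to use strand, and the cDNA kit does not mark it.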

Additional observations from a re-analysis of the deposited data

How the results depend on the processing

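Of 808 alternative values of the 8 tested members in 4 comparisons, 796 kept their direction and side of the threshold, 9 passed the threshold only under the alternative and none lost it. The log2 fold change of Cabp4 between ON-BC and OFF-BC (0.34) turned to -0.22 by edgeR, -0.21 by DESeq2 and between -0.37 and 1.175 when 1 library was left out, the lowest without the first and the highest without the third OFF-BC library. Cabp2 between rods and blue cones also passed by edgeR (log2 fold change -2.20, adjusted p = 0.0472). Tested against 0, 1 member was called between ON-BC and OFF-BC and 5 between rods and blue cones, and the regions called were 17 between ON-BC and OFF-BC, 31 between pan-BC and blue cones and 24 between rods and blue cones. The regions called between ON-BC and OFF-BC numbered 9 by edgeR (4 of them more open in ON-BC) and 6 with a pseudocount of 4 (2 more open in ON-BC), against 3 as reported. When each library was left out, the members called ranged from 0 to 0 between ON-BC and OFF-BC, 7 to 7 between pan-BC and rods, 6 to 7 between pan-BC and blue cones and 2 to 3 between rods and blue cones. Regions called ranged from 0 to 4, 33 to 38, 13 to 20 and 9 to 13 in the same order. Over all features, a test against 0 raised the genes called from 919 to 3783, 6112 to 11156, 5092 to 10704 and 2231 to 8068 in the order above, and the regions called from 8010 to 26416 between ON-BC and OFF-BC, 38966 to 66171 between pan-BC and blue cones and 10871 to 37557 between rods and blue cones. By edgeR 13665 regions were called between ON-BC and OFF-BC and 18414 between rods and blue cones. Without the second ON-BC or the first OFF-BC library 4986 and 4175 regions were called between those populations, and 7091 between rods and blue cones without the first blue cone library. The cause of these changes was not tested, except that a test against 0 is less strict by construction. Of 2509 values for called genes of the further lists, 68 lost the call, as did 82 of 1278 for called member regions, none with a change of sign. DESeq2 gave no adjusted p for Guca1b, which is not counted among these. Of 505 counts of the 5 lists 22 moved by over 1.5 times, such as the other cytosolic genes called between ON-BC and OFF-BC (4 as reported, 7 by edgeR or with a pseudocount of 4, 10 against 0) and, against 0 in the same comparison, the calmodulin list (3 to 6) and the channels (2 to 4). Scaling to library totals raised the median log2 fold change of all genes from 0.21 to 0.55 between pan-BC and rods and the share of called genes higher in pan-BC from 63.8% to 74.0%, and from 0.16 to 0.44 between pan-BC and blue cones, with no member call changed. The share of called regions more open in ON-BC than in OFF-BC, 62.1% as reported, was 51.5% with TMM, 71.1% by edgeR, 75.9% with a pseudocount of 4, 47.4% without the first ON-BC library and 43% without the second. Depth limits Caln1, Calb1, Pvalb and Cabp7 most, which rest on few reads.

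ON-BC and OFF-BC libraries share replicate numbers, and by the labels those of 1 number were of the same age (days 43, 48 and 42 for RNA-seq, 42 and 46 for ATAC-seq) and genotype. No label says that they came from the same animals or sort, so the numbers were not taken to pair them. Deviations from the group means of same-numbered libraries correlated at -0.08, 0.22 and -0.06 over genes. With 3 libraries in each population the deviations sum to 0, so these values cannot show whether the libraries were paired. With a replicate block over all populations the members called were 0, 7, 6 and 2, and the regions called 3, 36, 20 and 11, and with a replicate block in ON-BC and OFF-BC only, 0 members were called.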

Other observations

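Green cones were compared with no other population in the tests, and their open chromatin stood apart at Calb2. A region at -20803 bp from the Calb2 start site, chr8:110188915-110189114, had normalized ATAC-seq counts of 140.6 and 108.4 in the 2 green cone libraries, against 12.95 and 14.5 in blue cones, 1.56 and 4.74 in rods and 5.13 to 13.6 in the 6 bipolar cell libraries. Another, at -15813 bp and chr8:110183925-110184124, had 42.3 and 78.9 in green cones, 10.4 and 19.5 in blue cones and 10.9 and 16.9 in rods. Calb2 mRNA was not measured in green cones, and it was 0 to 8.35 in blue cones. This difference was not tested.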
